A study of Rattus norvegicus with 20 samples.

Results

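The choroid plexus transcripts considered here are those whose level differed in the same direction between obese and lean Zucker rats in a pair of separately assembled cohorts. All 20 libraries of the series entered the comparison, 12 from an untreated cohort and 8 from an injected cohort, and 12094 of 32883 Ensembl genes had a mean of at least 1 TPM (transcript abundance corrected for length and scaled to the same total in every library) over the 20 rats and were tested. Of these, 5901 (48.8%) had a difference of the same sign in both cohorts, 3427 (28.3%) higher and 2474 (20.5%) lower in obese rats. The average difference passed the threshold for 8 genes, 3 higher and 5 lower in the obese rats, each of them in both cohorts. The sign in each cohort is part of that average, so the shared sign of called genes is no independent test.

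Every animal was a female Zucker rat of 16 weeks. The untreated cohort held 6 lean rats heterozygous for the fa allele (+/fa, Lean) and 6 homozygous obese rats (fa/fa, Obese). The injected cohort held 4 lean rats given the oil vehicle (Lean+VEH) and 4 obese rats given testosterone (Obese+TT), on the same genotypes. No group of obese rats given vehicle and no lean group given testosterone is part of the design, so that in the injected cohort obesity and testosterone cannot be told apart. A difference found in both cohorts was present without testosterone in the first and with it in the second. Lean controls carried a single fa allele and were not wild type. The labels number each rat as a sample of its own, with 1 library per rat, and describe neither litters nor days of dissection.

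The choroid plexus is a fold of vascularized stroma inside the brain ventricles, covered by an epithelium that secretes cerebrospinal fluid (CSF) and makes large amounts of transthyretin (Ttr). The fa allele impairs the leptin receptor, through which the adipose hormone leptin signals satiety, and rats with a pair of fa alleles overeat and become obese. Leptin receptors are also present on choroid plexus cells, where they are known to bind circulating leptin. Bulk RNA from dissected tissue holds every cell type at once, and fewer cells of a type cannot be told apart from less RNA per cell.

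The libraries matched their tissue label. All 10 markers of choroid plexus epithelium were measured, none at 0 in any rat, and their summed level was 271360 to 400910 TPM per rat. That sum is mostly Ttr, which alone made up 25.8 to 39.3% of all TPM. The cohorts differed from each other in some other cell types. The 3 endothelial and mural markers with a symbol, of 11, summed to 179 to 288 TPM in the untreated and 6.95 to 24.1 TPM in the injected rats. Leukocyte sums also lay apart (511 to 674 and 106 to 319 TPM). Ependymal sums overlapped (264 to 362 and 276 to 327 TPM), as did fibroblast sums (2028 to 2429 and 1846 to 2228 TPM). The fibroblast marker Mgp alone was at 486 to 912 and 16.2 to 41.2 TPM. The main comparison of lean and obese rats had cohort as a block. A pair of lean vehicle rats stood apart. Lean+VEH rat 14 had the fewest genes above 0 TPM (14968, against 15609 to 16860 in the other 19) and the largest score on the first principal component (49.0, against -18.9 to 12.1), and Lean+VEH rat 13 lay with or next to the Obese+TT rats for several of the genes below. Results are therefore also given without either rat.

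Across all genes, the obesity differences of the cohorts showed no correlation. Over the 12094 genes Pearson's r between the untreated and the injected difference was -0.01 and Spearman's rho was -0.03, a description across genes, which are not independent replicates. Of 1203 genes with an unadjusted p under 0.05 in the untreated cohort alone, 592 (49.2%) had the same sign in the injected cohort. Of 989 such genes in the injected cohort, 481 (48.6%) had the same sign in the untreated cohort. Both shares were close to the 48.8% of all genes. Both cohorts had an unadjusted p under 0.05 for 70 genes (0.579%) of like direction, 35 higher and 35 lower, beside 58 (0.48%) of opposite direction. No gene had an adjusted p under 0.05 in limma in the untreated cohort alone (1203 at an unadjusted p under 0.05) or in the injected cohort alone (989).

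**Figure D1:**
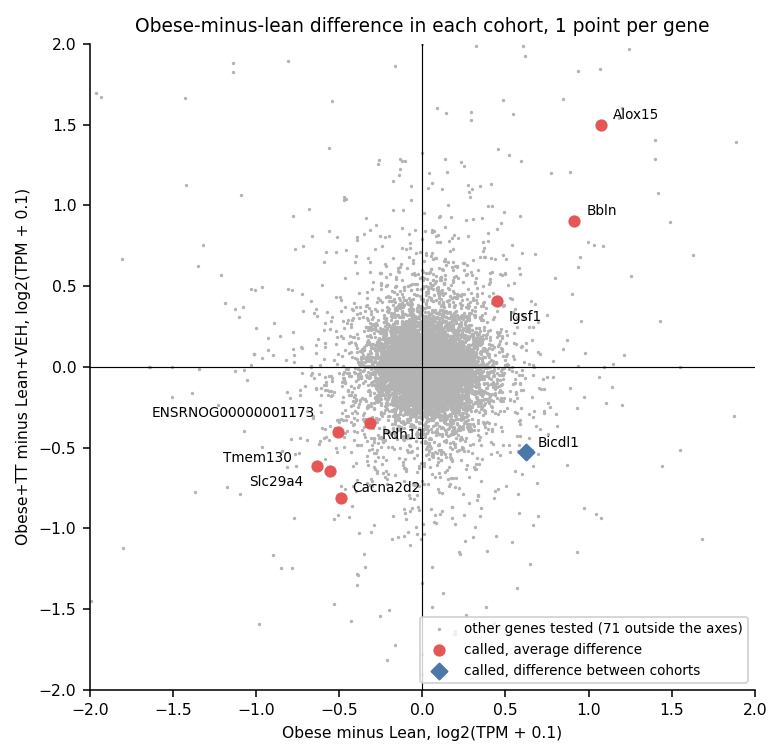
Obese-minus-lean difference of each tested gene in the untreated cohort (horizontal axis, 6 against 6 rats) and the injected cohort (vertical axis, 4 against 4 rats), both on the log2(TPM + 0.1) scale. The cloud of 12094 genes has no slope (r = -0.01); the 8 genes called for the average difference lie in the lower left and upper right quadrants, Bicdl1 in the lower right, and 71 genes fall outside the axes.

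The average of both cohorts was estimated with cohort as a block, as a difference of log2(TPM + 0.1), obese minus lean, in limma with Benjamini-Hochberg adjustment over all 12094 genes. The 8 genes called were 0.0661% of those tested, 3 (0.0248%) higher and 5 (0.0413%) lower. Without adjustment, 1086 genes (8.98%) had a p under 0.05, 657 (5.43%) higher and 429 (3.55%) lower. That split depended on the scaling: 684 were higher and 684 lower when the libraries were scaled by the median of ratios. The standard error of the average difference had a median of 0.08 over all genes, and 260 genes had an average difference beyond 0.5 in size. Lean and obese rats did not overlap at all, in both cohorts and in the same direction, for 4 genes (0.0331%): Cacna2d2, ENSRNOG00000001173, Cdc25b and Cst3. Within a single cohort, the groups did not overlap for 66 genes (0.546%) of the untreated and, with fewer rats, for 518 genes (4.28%) of the injected cohort.

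**Figure D2:**
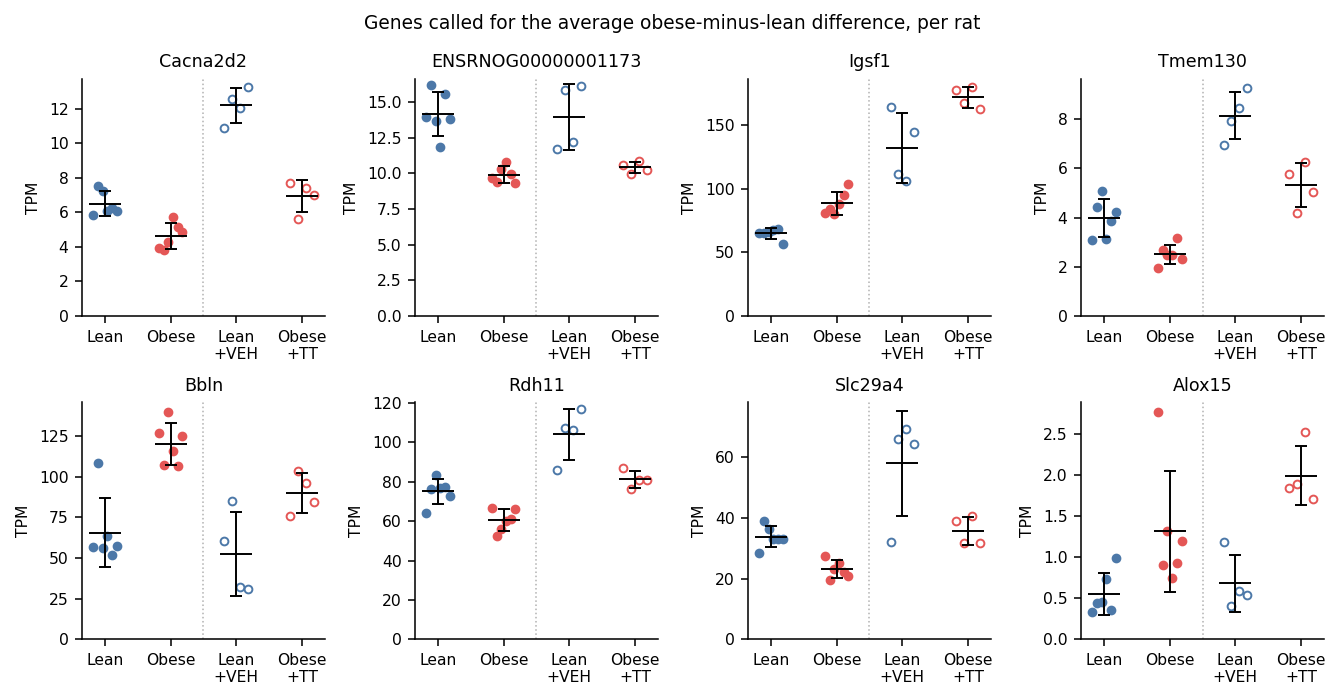
TPM of the 8 called genes in every rat (points; filled, untreated cohort; open, injected cohort), with the mean (horizontal line) and SD (error bar) of each group of 6 or 4 rats on an axis from 0. Red (obese) and blue (lean) points separate fully in both cohorts for Cacna2d2 and ENSRNOG00000001173 and overlap in 1 or both cohorts for the other 6 genes.

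The genes that fell in obese rats included a channel subunit, a transporter and a retinoid enzyme. Cacna2d2 (ENSRNOG00000015835) encodes an auxiliary subunit that brings voltage-gated calcium channels to the membrane. It was at 5.84 to 7.56 TPM (median 6.18) in Lean and 3.81 to 5.75 TPM (median 4.57) in Obese rats. In the injected cohort it was at 10.9, 12.6, 12.1 and 13.3 TPM in Lean+VEH and 7.72, 5.6, 7.43 and 7.04 TPM in Obese+TT rats. No obese rat reached any lean rat of its cohort, although the lean level itself was higher in the injected cohort. The average difference was -0.62 (standard error 0.09, 95% interval -0.80 to -0.44, adjusted p = 0.00317), a fall by 34.9% on that scale, with -0.49 in the untreated and -0.81 in the injected cohort.

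ENSRNOG00000001173, which has no symbol in the tables used here, was at 11.8 to 16.2 TPM (median 13.9) in Lean and 9.29 to 10.8 TPM (median 9.81) in Obese rats. Lean+VEH rats had 11.7, 15.8, 12.2 and 16.1 TPM and the Obese+TT rats 10.6, 9.98, 10.9 and 10.2 TPM. All 10 obese rats lay within 9.29 to 10.9 TPM, below all 10 lean rats, and the lean rats spread more widely. On average ENSRNOG00000001173 differed by -0.47 (standard error 0.07, adjusted p = 0.00317).

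Tmem130 (ENSRNOG00000025235), a transmembrane protein, was at 3.08 to 5.08 TPM (median 4.05) in Lean, 1.97 to 3.16 TPM (median 2.46) in Obese, 6.97, 7.92, 8.44 and 9.28 TPM in Lean+VEH, and 5.79, 4.20, 6.27 and 5.05 TPM in Obese+TT rats. The groups were separate in the injected cohort and overlapped in the untreated cohort. Its difference was nearly equal in the cohorts, -0.64 and -0.61, with an average of -0.63 (standard error 0.10, adjusted p = 0.0122).

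Slc29a4 (ENSRNOG00000001115) encodes an equilibrative transporter that carries monoamines and nucleosides. It was at 28.5 to 39.0 TPM (median 33.0) in Lean and 19.5 to 27.4 TPM (median 22.6) in Obese rats, without overlap. In the injected cohort, Lean+VEH rats 14, 15 and 16 had 66.0, 69.1 and 64.3 TPM, and the Obese+TT rats had 39.0, 31.6, 40.5 and 31.7 TPM. Lean+VEH rat 13, at 32.2 TPM, lay among the Obese+TT rats. On average Slc29a4 differed by -0.59 (standard error 0.11, adjusted p = 0.0411), and without rat 13 the adjusted p was 0.000422, whereas it rose to as much as 0.113 when another rat was left out.

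Rdh11 (ENSRNOG00000054770), a retinal-reducing enzyme of the endoplasmic reticulum, was at 64.2 to 83.5 TPM (median 76.5) in Lean and 52.5 to 66.8 TPM (median 60.4) in Obese rats. In the injected cohort, Lean+VEH rats had 85.9, 107, 106 and 117 TPM and the Obese+TT rats 86.9, 76.3, 80.8 and 81.1 TPM. The lowest lean rat of each cohort lay within the obese range of that cohort, and the other lean rats were above all obese rats of their cohort. On average Rdh11 differed by -0.33 (standard error 0.06, adjusted p = 0.0285), which was the smallest of the 8 in size.

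The 3 genes that rose were Igsf1, RGD1561113 and Alox15. Igsf1 (ENSRNOG00000007600) encodes a membrane glycoprotein of the immunoglobulin superfamily whose loss in people causes central hypothyroidism. Lean rats had 56.8 to 68.5 TPM (median 65.4) and Obese rats 80.4 to 103 TPM (median 85.8), without overlap. Values were 164, 112, 106 and 145 TPM in Lean+VEH rats and, in Obese+TT rats, 178, 167, 180 and 163 TPM, where only Lean+VEH rat 13 reached the Obese+TT range. The difference was 0.45 and 0.41 in the cohorts, with an average of 0.43 (standard error 0.07, adjusted p = 0.0114).

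RGD1561113 (ENSRNOG00000022681; Bbln, bublin coiled coil protein, in RefSeq) was at 51.7 to 108.5 TPM (median 57.0) in Lean and 107 to 140 TPM (median 120) in Obese rats. Only Lean rat 2 reached the Obese range, the other 5 lean rats being at or below 63.4 TPM. Levels in Lean+VEH rats were 60.65, 85.2, 32.4 and 31.1 TPM, and in Obese+TT rats 75.6, 103, 96.4 and 84.6 TPM, with overlap through Lean+VEH rat 14. On average it differed by 0.91 (standard error 0.16, adjusted p = 0.0192), with 0.92 and 0.90 in the cohorts.

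Alox15 (ENSRNOG00000019183), a lipoxygenase of arachidonic and linoleic acid that is abundant in maturing red blood cells and some leukocytes, had the largest average difference of the 8, 1.24 (standard error 0.23, adjusted p = 0.0411), at the lowest level. It was at 0.33 to 0.99 TPM (median 0.445) in Lean and 0.75 to 2.76 TPM (median 1.06) in Obese rats. Among the injected rats, Lean+VEH had 1.18, 0.41, 0.59 and 0.54 TPM and Obese+TT 1.84, 1.89, 2.52 and 1.71 TPM. The groups overlapped in the untreated cohort and were separate in the injected cohort. Obese rat 7, the highest of its group, had a TPM of 2.76, and without it the adjusted p was 0.0551. In all, the call was lost in 15 of the 20 fits that left out 1 rat. The level of about 1 TPM also makes this gene sensitive to the pseudocount, since with 1 TPM in place of 0.1 the adjusted p was 0.0573.

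Red blood cell transcripts leaned the same way as Alox15. Of 8 erythrocyte markers, 4 carry a symbol here and 3 were tested (Hba-a1, Hba-a2 and Hbb, the haemoglobin chains). None was called, all 3 had an unadjusted p under 0.05 with a higher level in obese rats (all genes, 5.43%), and all 3 were higher in both cohorts. The 4 markers summed to 3105 to 5471 TPM in Lean, 4052 to 7019 TPM in Obese, 2168 to 5768 TPM in Lean+VEH and 4800 to 8388 TPM in Obese+TT rats. Hba-a2 (ENSRNOG00000047321) was at 637 to 1012 TPM (median 829.4) in Lean and 837 to 1399 TPM (median 1113) in Obese rats. In the injected cohort it was at 1106, 496, 476 and 409 TPM in Lean+VEH and 1359, 984, 1557 and 1191 TPM in Obese+TT rats, with Lean+VEH rat 13 again among the Obese+TT rats. Its average was 0.70 (standard error 0.16, adjusted p = 0.113). Without rat 13 it passed the threshold (adjusted p = 0.0294), and without Lean+VEH rat 14 it did not (adjusted p = 0.224). Whether blood in the tissue has a part in the Alox15 difference was not tested. The 4 leukocyte markers with a symbol, of 15, summed to 511 to 594 TPM in Lean and 538 to 674 TPM in Obese rats but to 147 to 319 TPM in Lean+VEH and 106 to 225 TPM in Obese+TT rats, and none of them had an unadjusted p under 0.05 for the average difference.

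A further 12 genes complete the 20 with the smallest p, and none of these passed the threshold. Nearest to it were Mmel1 (-0.65, adjusted p = 0.0593), a membrane metallopeptidase related to neprilysin, and Syt13 (-0.37, adjusted p = 0.0593), a synaptotagmin, just outside, with Slc29a4 and Alox15 (adjusted p = 0.0411 each) just inside. Cxcl17, a mucosal chemokine, had an average difference of -0.66 and Hr, a nuclear receptor corepressor, of -0.68 (adjusted p = 0.0742 and 0.0746). On the higher side were ENSRNOG00000036682 (0.64), Cdc25b (0.61), ENSRNOG00000007679 (0.46) and Acadl (0.27), with adjusted p-values of 0.0746 to 0.0899. The others were lower, Arl6ip1 with -0.32, ENSRNOG00000038616 with -0.48, LOC100910978 with -0.25 and Cst3 with -0.20 (adjusted p = 0.0899 each). All 12 had the same sign in both cohorts, which is no independent test, since the genes were ranked by the average of both cohorts. LOC100910978 had -0.37 in the untreated and -0.07 in the injected cohort.

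**Figure D3:**
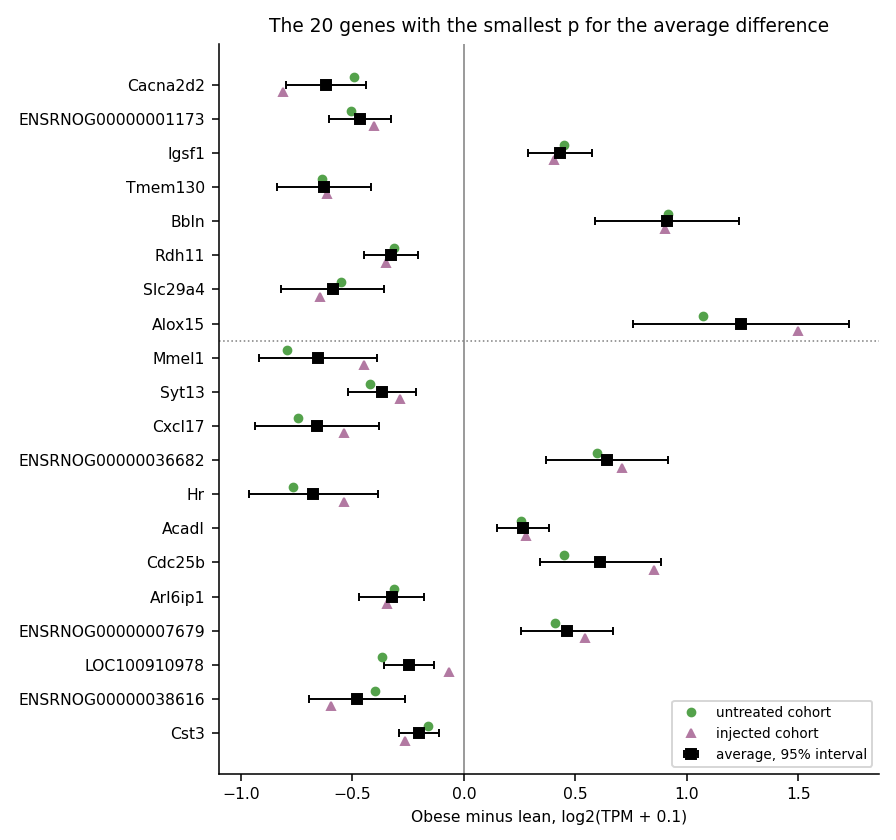
Average obese-minus-lean difference (squares, with the 95% interval) and the difference in each cohort (circles, untreated; triangles, injected) for the 20 genes with the smallest p, on the log2(TPM + 0.1) scale. The 8 genes above the dotted line had an adjusted p under 0.05. Both cohort values lie on the same side of 0 for all 20, from LOC100910978 at -0.07 in the injected cohort to Alox15 at 1.497. The genes were ranked by the p of the average of these same values, so the shared side is no independent test.

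A pair of genes short of the threshold nevertheless separated all lean from all obese rats within each cohort. Cst3 (ENSRNOG00000005195) encodes cystatin C, a protease inhibitor that the choroid plexus secretes into CSF in large amounts. It was at 42426 to 48046 TPM (median 43608) in Lean and 35881 to 41963 TPM (median 40005) in Obese rats. Injected lean rats had 33204, 37532, 35770 and 33074 TPM and injected obese rats 28501, 29468, 29870 and 28311 TPM. The separation was complete but small, -0.20 (standard error 0.04, 95% interval -0.29 to -0.11). Cdc25b (ENSRNOG00000021248), a phosphatase that activates cyclin-dependent kinases, was at 0.75 to 1.29 TPM (median 1.10) in Lean and 1.31 to 1.84 TPM (median 1.45) in Obese rats. Injected lean rats had 1.72, 1.09, 1.04 and 1.05 TPM and injected obese rats 2.79, 2.05, 2.45 and 1.81 TPM, so that the gap to Lean+VEH rat 13 was narrow. Both genes are named for this separation, which is a description and carries no test of its own.

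The calls differed in how far they rested on single rats. With each of the 20 rats left out in turn, Cacna2d2, ENSRNOG00000001173, Igsf1 and Tmem130 kept an adjusted p under 0.05 in all 20 fits, with at most 0.0104, 0.0104, 0.0283 and 0.0392. Bbln kept it in 18 of 20 and lost it without Lean rat 3 or Obese rat 9 (adjusted p up to 0.0573). Rdh11 kept it in 9, Slc29a4 in 5 and Alox15 in 5 of the 20 fits. The number of genes called ranged from 4 (without Lean rat 3 or Obese rat 9) to 17 (without Lean+VEH rat 13), and was 5 without Lean+VEH rat 14. All 8 genes were among the 17, joined by Abat, Arl6ip1, Cdc25b, Cxcl17, ENSRNOG00000036682, Hba-a2, Hsp90b1, Mmel1 and Syt13. Rdh11, Slc29a4 and Alox15 were not among the 5 called without Lean+VEH rat 14.

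**Figure D4:**
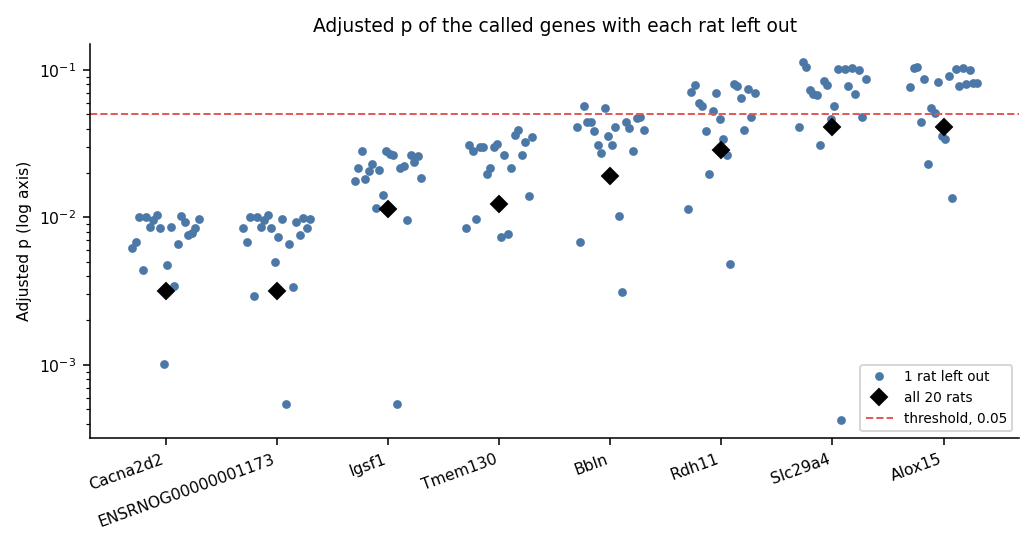
Adjusted p (log axis) of the 8 called genes with all 20 rats (diamonds) and with each rat left out (circles, 20 per gene); the dashed line is the threshold of 0.05. All circles of the first 4 genes lie below the line, whereas 11 of 20 for Rdh11 and 15 of 20 for Slc29a4 and for Alox15 lie above it.

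Gene lists were described by their counts and medians beside those of all genes, whose median average difference was 0.01. Members could come only from the 2568 tested genes with a symbol, whereas the shares of all genes cover all 12094, an unlike set. Some members carry a symbol only because the study listed them as changed in these rats. These were 4 clock and 3 heat shock genes. The endoplasmic reticulum stress, fatty acid synthesis, fatty acid oxidation, insulin and IGF, fibroblast and leukocyte lists held 1 each. None of the named members of the 24 lists was called. The list of endoplasmic reticulum (ER) stress genes held the most members with an unadjusted p under 0.05 and a lower level in obese rats. These chaperones and folding enzymes are induced when unfolded protein builds up in the ER, and a secretory epithelium expresses them at a high resting level. Of 17 listed genes, 13 were tested, 8 had an unadjusted p under 0.05 with a lower level in obese rats (all genes, 3.55%) and none with a higher level. The median of the 13 was -0.12, with -0.12 in the untreated and -0.14 in the injected cohort, and 10 of 13 were lower in both cohorts (all genes, 20.5%). The count of 8 was the same with either other scaling, without Lean+VEH rat 13 and without rat 14. The members share regulation and are not independent of each other.

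Hsp90b1 (ENSRNOG00000026963), the ER form of the Hsp90 chaperone, was at 203 to 239 TPM (median 225) in Lean and 171 to 212 TPM (median 180) in Obese rats. The Lean+VEH rats had 311, 412, 458 and 454 TPM and the Obese+TT rats 342, 328, 340 and 380 TPM. Lean+VEH rat 13 was the lowest rat of the injected cohort, and the other lean rats of that cohort were above all Obese+TT rats. The average difference was -0.25 (standard error 0.06, adjusted p = 0.162). Without rat 13 Hsp90b1 was among the genes called, and without Lean+VEH rat 14 it was not (adjusted p = 0.255). Hspa5 (ENSRNOG00000018294), the main ER chaperone BiP, had an average difference of -0.23 (standard error 0.07, adjusted p = 0.282), Pdia4 of -0.24 and Manf of -0.21. Calr and Canx, the lectin chaperones calreticulin and calnexin, had -0.16 and -0.12. Xbp1, a transcription factor of the same response, did not share the direction, with 0.38 in the untreated and -0.22 in the injected cohort.

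Since 10 of the 13 members were lower in both cohorts, promoters of this list are shown. The ER stress element, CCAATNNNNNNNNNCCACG, is the known binding site of the factors that induce these genes. Searched on both strands in the 250 bases before the gene start, it was present in 22 of 33469 RefSeq rat promoters (0.0657%; GRCr8). Of the 13 tested members, 10 matched a promoter by symbol and 5 of these held the element. They were Hspa5, Hsp90b1, Calr and Canx, each with a negative average difference, and Xbp1. The element was searched because it is known for such genes, so its share among them says nothing about the obesity difference. In the windows below, 5′ to 3′ on the gene's strand, capitals mark the fixed bases of each match; Hsp90b1 has 2 matches, the second on the opposite strand.
Hspa5 (chr3:38452766-38453015, plus strand): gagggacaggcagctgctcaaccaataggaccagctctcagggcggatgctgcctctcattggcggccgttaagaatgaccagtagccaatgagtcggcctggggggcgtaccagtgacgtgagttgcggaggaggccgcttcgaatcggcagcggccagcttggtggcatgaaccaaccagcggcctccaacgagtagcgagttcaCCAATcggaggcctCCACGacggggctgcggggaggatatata
Hsp90b1 (chr7:23012294-23012543, minus strand): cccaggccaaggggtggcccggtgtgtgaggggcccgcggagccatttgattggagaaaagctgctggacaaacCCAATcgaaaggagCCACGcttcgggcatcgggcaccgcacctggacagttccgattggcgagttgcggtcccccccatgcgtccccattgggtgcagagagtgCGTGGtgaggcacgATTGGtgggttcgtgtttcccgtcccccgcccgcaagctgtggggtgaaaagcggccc
Calr (chr19:40213117-40213366, plus strand): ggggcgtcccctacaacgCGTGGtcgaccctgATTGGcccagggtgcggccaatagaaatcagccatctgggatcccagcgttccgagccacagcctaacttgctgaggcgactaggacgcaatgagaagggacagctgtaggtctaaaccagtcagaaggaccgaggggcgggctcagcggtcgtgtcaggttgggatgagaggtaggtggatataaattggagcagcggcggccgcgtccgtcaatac
Canx (chr10:35157858-35158107, minus strand): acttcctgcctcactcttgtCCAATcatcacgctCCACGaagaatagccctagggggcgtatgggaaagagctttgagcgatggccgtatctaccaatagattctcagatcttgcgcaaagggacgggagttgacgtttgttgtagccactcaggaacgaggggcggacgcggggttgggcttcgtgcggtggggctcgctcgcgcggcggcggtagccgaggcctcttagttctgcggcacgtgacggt

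The matches lie 25 to 43 bases before the start of Hspa5, 158 to 176 and 54 to 72 before that of Hsp90b1, 214 to 232 before that of Calr and 212 to 230 before that of Canx. Of the 8 called genes, 6 had a promoter in the table, and none held this element. The STAT consensus TTCNNNGAA, bound by the factors that act downstream of the leptin receptor among others, was present in 2566 of 33469 promoters (7.67%) and, of the 6, in that of Slc29a4, where capitals again mark the fixed bases. AGAACA (17.5% of all promoters), AGGTCA (14.1%) and CACGTG (5.59%) were in none of the 6. A match is a description of the letters and shows no binding.
Slc29a4 (chr12:16988339-16988588, minus strand): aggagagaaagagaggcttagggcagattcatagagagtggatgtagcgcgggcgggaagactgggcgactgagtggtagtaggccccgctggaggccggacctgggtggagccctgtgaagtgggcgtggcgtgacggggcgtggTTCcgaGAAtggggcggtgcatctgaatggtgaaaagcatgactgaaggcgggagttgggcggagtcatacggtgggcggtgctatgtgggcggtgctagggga

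Lipid genes were described in 3 lists, and none of their members was called. Of 14 genes of fatty acid synthesis, 7 were tested, 3 had an unadjusted p under 0.05 with a lower level in obese rats (Acsl3, Srebf1 and Fads2, with -0.34, -0.32 and -0.24; all genes, 3.55%), and 6 were lower in both cohorts (all genes, 20.5%). Acsl3, which activates long-chain fatty acids, had the smallest p of the list (adjusted p = 0.197). The member furthest from 0 was Scd, with -0.75 on average (adjusted p = 0.709), -0.39 in the untreated and -1.29 in the injected cohort. Scd was at 0.40 to 1.22 TPM in Lean rats. Obese rats 7 and 12, at 3.24 and 5.56 TPM, lay above all Lean rats, and the other Obese rats, at 0.13 to 0.27 TPM, below them. The median of the 7 was -0.24. Of 20 genes of fatty acid oxidation and PPAR targets, 10 were tested, 3 had an unadjusted p under 0.05 with a higher level (Acadl, Decr1 and Ucp2, with 0.27, 0.20 and 0.22; all genes, 5.43%), and 8 were higher in both cohorts (all genes, 28.3%). Their median was 0.07. Acadl (ENSRNOG00000012966), a mitochondrial acyl-CoA dehydrogenase for long-chain substrates, was at 18.8 to 26.6 TPM (median 22.7) in Lean and 23.8 to 30.8 TPM (median 26.6) in Obese rats. The Lean+VEH rats had 24.6, 24.3, 27.1 and 24.9 TPM and the Obese+TT rats 29.1, 31.0, 32.4 and 29.9 TPM, with overlap only in the untreated cohort. The adjusted p of Acadl was 0.0899, and 0.0304 after rescaling without Ttr. Acadl was called in 2 of 12 other settings. With 1 rat left out it was called in 2 of 20 fits, with an adjusted p of up to 0.183. Of 12 tested glycolysis genes, 3 had an unadjusted p under 0.05 and a higher level (Ldha, Aldoa and Tpi1; all genes, 5.43%), 8 were higher in both cohorts (all genes, 28.3%), and the median was 0.06. Of 20 sterol genes, 6 were tested and none had an unadjusted p under 0.05, Insig1 having -0.40 and Msmo1 0.13.

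**Figure D5:**
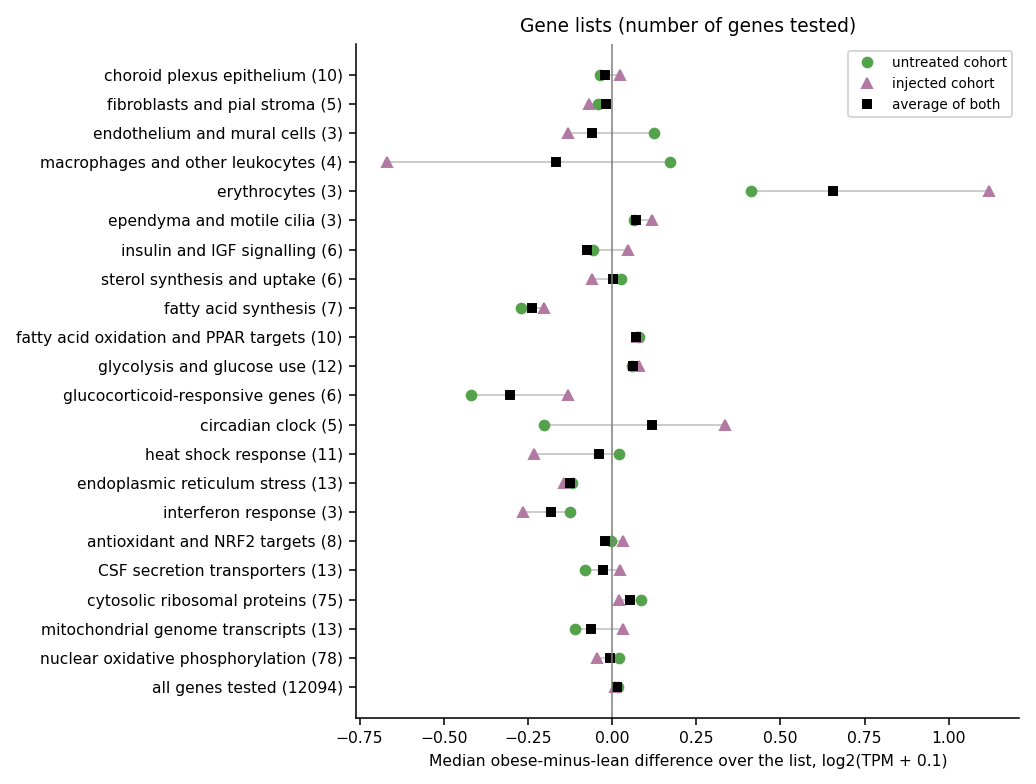
Median obese-minus-lean difference over the tested members of each gene list (number in brackets), for the untreated cohort (circles), the injected cohort (triangles) and their average (squares), on the log2(TPM + 0.1) scale; lists with fewer than 3 tested genes are left out. The cohorts nearly coincide for ER stress (-0.12 and -0.14) and fatty acid oxidation (0.08 and 0.08) and lie apart for leukocytes (0.17 and -0.67) and the circadian clock (-0.20 and 0.34).

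Of 15 glucocorticoid-responsive genes, 6 were tested and 4 had an unadjusted p under 0.05 with a lower level in obese rats (all genes, 3.55%). These were the metallothioneins Mt2A (-0.84, adjusted p = 0.273) and Mt1 (-0.43, adjusted p = 0.26), which bind zinc and copper, the kinase Sgk1 (-0.31) and the cell cycle inhibitor Cdkn1a (-0.29). All 4 were lower in both cohorts, Sgk1 by little in the injected cohort (-0.48 in the untreated and -0.07 in the injected cohort). The list median was -0.30. Of 3 tested interferon genes, 2 were lower at an unadjusted p under 0.05 (all genes, 3.55%), Ifi27 (-0.34) and the MHC class I light chain B2m (-0.18, adjusted p = 0.155). Of 11 tested heat shock genes, 2 were lower at that level (Hsp90aa1, with -0.23, and Fkbp4) and 1 was higher (Hspa8), while Chordc1 had 0.56 in the untreated and -0.28 in the injected cohort. Of 75 cytosolic ribosomal protein genes, 14 had an unadjusted p under 0.05 and a higher level (all genes, 5.43%), none a lower level, and the median was 0.05. That count was 9 with median-of-ratios scaling, 9 without Lean+VEH rat 14 and 19 after rescaling without Ttr. The 2 members furthest from 0 were uneven between cohorts, Rpl8 with 0.98 and 0.09 and Rps27a with 0.01 and 0.95.

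Lists tied to the study's question of CSF secretion had small differences. Of 13 tested CSF secretion transporters, 1 had an unadjusted p under 0.05, the bicarbonate transporter Slc4a5 (-0.13, adjusted p = 0.523). Slc4a5 had -0.21 in the untreated and -0.02 in the injected cohort. Atp1b2 had -0.08, and the list ranged from -0.13 to 0.07 with a median of -0.03. Of the 10 epithelial markers, 2 had an unadjusted p under 0.05 and a lower level, Slc4a5 again and the prolactin receptor Prlr, the latter with -0.11 in the untreated and -0.63 in the injected cohort. The marker with the next largest difference, Otx2, had -0.17 on average and turned to 0.15 without Obese rat 10. Lepr (ENSRNOG00000023664), the gene the fa allele affects, was at 32.2 to 112 TPM (median 37.7) in Lean and 29.2 to 40.3 TPM (median 30.9) in Obese rats. The Lean+VEH rats had 58.8, 359, 43.1 and 53.0 TPM and the Obese+TT rats 57.4, 53.6, 85.7 and 62.8 TPM. Lean+VEH rat 14 stood far above the others, and the groups overlapped in both cohorts. The average difference was -0.46 (95% interval -1.07 to 0.14, adjusted p = 0.695) and -0.21 without Lean+VEH rat 14. The fa allele is a point change in the protein, so that a level of its transcript is no check of genotype, and the deposited values hold no sequence to check it with.

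The remaining lists held no gene with a call and few with a low p. Of 6 tested insulin and IGF genes, Akt2 (-0.17) was lower and Igfbp2 (0.11) higher at an unadjusted p under 0.05, and Igf1 had -0.37 with a standard error of 0.38 (-0.13 without Lean+VEH rat 15, -0.20 without rat 14 and -0.62 without rat 13). Of 5 tested circadian clock genes, 4 carry a symbol here only because the study listed them as changed in these rats; Arntl had -0.20 and -1.51 and Dbp 0.10 and 0.93 in the cohorts. Of 5 fibroblast genes, Col1a1 (0.51) was higher and Mgp (-0.26) lower at that level. Vascular, ependymal, complement and antioxidant lists had no member at that level (3, 3, 1 and 8 genes tested), Tagln and Plvap differing by -0.12 and 0.12, Rsph1 and Dynlrb2 by 0.09 and 0.07, A2m by -0.06, and Gsta4 and Prdx1 by -0.10 and 0.09. The leukocyte genes RT1-Db1 and RT1-Da had 0.57 and 0.14 in the untreated and -1.37 and -0.65 in the injected cohort. Of 13 transcripts of the mitochondrial genome, 3 were lower at that level, among them Mt-nd2 (-0.17); Mt-atp8, listed at 0 in 2 Lean+VEH rats and between 11719 and 20675 TPM in the other 18, has no interpretable difference. Of 78 nuclear oxidative phosphorylation genes, 3 were higher and 2 lower, Ndufa1 having -0.43 with a standard error of 0.47 (-0.05 without Obese rat 12 and -0.66 without Lean+VEH rat 16) and Cox8b -0.31. None of the 14 neuron and glia markers carries a symbol in the tables used, so that this list could not be described.

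The obesity difference itself was compared between cohorts in the same 20 rats. Of 12094 genes, 1 (0.00827%) was called and 1029 had an unadjusted p under 0.05. The called gene was Bicdl1 (ENSRNOG00000056955), an adaptor between the motor dynein and its cargo. It was at 12.6 to 19.5 TPM (median 14.9) in Lean and 19.1 to 27.5 TPM (median 23.7) in Obese rats. The Lean+VEH rats had 19.2, 21.0, 17.5 and 18.9 TPM and the Obese+TT rats 15.5, 13.3, 14.6 and 10.1 TPM. Obese rats were thus higher in the untreated and lower in the injected cohort, by 0.62 and -0.53, a change of -1.15 between cohorts (standard error 0.18, adjusted p = 0.0477). The next 4 genes did not pass (adjusted p = 0.125 each). Nphs1, the slit diaphragm protein nephrin, had -0.16 in the untreated and -1.72 in the injected cohort. Adamtsl4 had 0.23 and -0.45, ENSRNOG00000019108 had 0.26 and -0.31, and LOC103693375 had 0.18 and -0.58. For none of the 8 genes of the shared effect did the difference between cohorts have an unadjusted p under 0.05, the smallest being 0.0709 for Cacna2d2, and this does not show that the effects were equal.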

How the data were processed

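Choroid plexus RNA was sequenced paired-end with 1 library per rat. Per the labels the reads were processed with STAR 2.7.9a, RSEM 1.3.3 and DESeq2 3.16 on Rnor_6.0, in roles the labels do not assign. The authors deposited, for each rat, TPM and FPKM of 32883 Ensembl genes. Within each library the deposited FPKM is proportional to the TPM, and it was not analysed further. Counts and the study's own comparisons, which rest on a count test, were not used here. The methods name a single sequencing output for all libraries, and the read depth of each library cannot be read from TPM. Ratios of low values between the 190 pairs of libraries did not fall on whole-read steps, since the fullest bin of 0.04 on the log2 scale held 2.61 to 6.77% of genes. No library was a duplicate, with at most 0.46% identical values among 42 pairs of a group.

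Differences were fitted on log2(TPM + 0.1) with limma 3.58.1 in R 4.3.3 on genes whose mean over the 20 rats reached 1 TPM, with cohort and obesity as terms, a mean-variance trend, and Benjamini-Hochberg adjustment. Calls were made where the adjusted p was under 0.05. The fold changes understate those of low genes because of the pseudocount. The difference between cohorts was a contrast of the group means. The fit was tested on simulated data. Exact permutation p-values within cohorts were computed for the named genes and are not given. Most of these genes were picked by the p-value or size of a difference in these same data. Tables and plots were made with Python 3.11.15, pandas 2.3.3, scipy 1.17.1 and matplotlib 3.10.9.

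The members and the gene lists were chosen with earlier results of these data known. Genes are named by rule: the 20 smallest p-values (fewer than 10 genes being called), genes without overlap in both cohorts among the 200 smallest p-values, the 2 members of each list furthest from 0, Lepr, and the 5 smallest p-values for the difference between cohorts. Hspa5, Calr, Canx, Manf, Hbb, Srebf1, Fads2, Decr1, Sgk1, Cdkn1a and the members named for an unadjusted p under 0.05 were added after their values were seen. Symbols exist for 2616 of the 32883 gene identifiers, and for 2568 of the 12094 tested. They were taken from the study's supplementary tables, which hold abundant genes and those the study listed as changed, so that the lists are incomplete and lean to abundant genes. RefSeq (GRCr8) gave promoters and the name Bbln, matched by symbol or synonym. A member of the CSF secretion list is counted with it and not reported here.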

Additional observations from a re-analysis of the deposited data

Results flagged for a closer look

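Within groups of 4 or 6 rats, 108 sets of values were screened for a rat far from the others by Dixon's ratio, and 9 were found where about 5.4 are given by chance. Lean+VEH rat 13 accounted for 3 of them, with the lowest Slc29a4 of its group (32.2 TPM, the others 64.3 to 69.1), the highest Hr (4.28 TPM, the others 3.54 to 3.63) and the highest Cdc25b (1.72 TPM, the others 1.04 to 1.09). The Slc29a4 and Cdc25b values lay on the side of the Obese+TT rats, and the Hr value on the opposite side. Lepr was at 358.8 TPM in Lean+VEH rat 14, with the others at 43.1 to 58.8. Mmel1 was at 3.88 TPM in Obese+TT rat 20, with the others at 7.62 to 8.12.

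In the untreated cohort, Igsf1 was at 56.8 TPM in Lean rat 6 (the others 65.1 to 68.5) and Bbln at 108.5 TPM in Lean rat 2 (the others 51.7 to 63.4). Alox15 was at 2.76 TPM in Obese rat 7 (the others 0.75 to 1.32) and Nphs1 at 4.58 TPM in Obese rat 11 (the others 2.14 to 2.82).

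The obesity difference of Bicdl1 changed by -1.15 on the log2 scale from the untreated to the injected cohort, by the tested contrast between cohorts (adjusted p = 0.0477). Its adjusted p ranged from 0.0105 to 0.207 with 1 rat left out and from 0.00587 to 0.118 over the other alternatives, so that the call did not hold throughout.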

How the results depend on the processing

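No paired analysis was possible because the groups share no replicate numbers. Of the average effect, 8 genes were called; the count was 20 with median-of-ratios scaling, 1 with no cohort term, 0 in either cohort alone and 0 with the larger p of both cohorts, and 4 to 17 with 1 rat left out. The counts of calls moving the same way in both cohorts were the same in each of these (20, 1, 0, and 4 to 17). The sign in each cohort is part of the average, so this equality is no separate support. The other pseudocounts, filters, eBayes settings, library weights, equal cohort weights and rescaling without Ttr gave 6 to 12. Tmem130 and Alox15 were not tested at a minimum mean of 5 TPM, where 6 genes were called. The loss without a cohort term covers all but ENSRNOG00000001173. Apart from the fits with 0 calls and those with 1 rat left out, Cacna2d2, Igsf1, Tmem130 and Bbln lost the call only there, Rdh11 also without trend, Slc29a4 also without trend, without filter and with library weights, and Alox15 also without filter and with pseudocount 1; the cause was not tested.

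For the difference between cohorts, the 1 call became 2 with pseudocount 0.01 and with median-of-ratios scaling, 11 after rescaling without Ttr, 0 with a minimum of 0.1 TPM, with no filter, without trend and with library weights, and 0 to 13 with 1 rat left out. Shares of like sign ranged from 47.2 to 52.7% (chosen in the untreated cohort) and 45.7 to 53.1% (chosen in the injected cohort) with 1 rat left out. For the 100 smallest p-values, a choice made after seeing the data, they were 49 and 57%.

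Of single genes none of which was called, the average turned in sign as follows. With the untreated cohort alone it was 0.33 for Tagln, 0.57 for RT1-Db1, 0.14 for RT1-Da, 0.25 for A2m, 0.055 for Gsta4 and -0.19 for Mt-atp8. With the injected cohort alone it was 0.11 for Otx2, 0.026 for Akt2, -0.017 for Msmo1, -0.28 for Chordc1 and 0.010 for Mt-nd2. With 1 rat left out it ranged from -0.26 to 0.15 for Otx2, -0.037 to 0.28 for Plvap, -0.41 to 0.006003 for RT1-Db1 and -0.029 to 0.22 for Msmo1. TPM keeps no read depth per library, so no limit of detection is given.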

Other observations

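A gene below the minimum of 1 TPM, chosen after its values were seen, was called when the minimum mean was lowered to 0.1 TPM. Slc4a1 (ENSRNOG00000020951) encodes the anion exchanger of the red blood cell membrane, band 3. It was at 0.09 to 0.29 TPM (median 0.18) in Lean and 0.30 to 0.73 TPM (median 0.39) in Obese rats. The Lean+VEH rats had 0.34, 0.25, 0.15 and 0.13 TPM and the Obese+TT rats 0.96, 0.53, 0.76 and 0.59 TPM. All obese rats were above all lean rats of their cohort, at levels close to the smallest values listed. The average difference was 1.16 (standard error 0.19, adjusted p = 0.0167; 0.0181 with no filter), with 1.01 in the untreated and 1.37 in the injected cohort. Hba-a1, Hba-a2 and Hbb were also higher in obese rats in both cohorts. Slc4a1 was chosen after its values were seen and is no independent addition to them. Of 8 listed red cell markers, only these 4 carry a symbol here. Neither the blood content of the tissue nor its effect on other genes was tested.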
